A study of Mus musculus with 6 samples.

Results

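The SLC25 family, the mitochondrial solute carriers, was followed across RNA sequencing libraries of mouse lung cells prepared as alveolar epithelial type 2 (AT2) cells, which make surfactant. Members were the genes whose symbol is Slc25a followed by a number. These were 40 of the 13931 genes listed, with 66 of the 24647 listed transcripts. RefSeq names 47 mouse protein-coding genes in this way, and those outside the 40 were not analysed here. The libraries came from 3 C57BL/6 mice exposed to bleomycin at 1 U/kg and 3 C57BL/6 mice exposed to PBS, with more than a single exposure per the labels, and each library is 1 mouse. Bleomycin breaks DNA strands and is given to rodents as a model of lung injury and scarring. No transgene or mutant allele is named. The route, spacing and number of exposures, the animals' age, the time of harvest and the way the cells were isolated were not stated in the sources that were used.

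Carriers of this family sit in the inner membrane of the mitochondrion, with a few members in other membranes, and move nucleotides, phosphate, carboxylates, amino acids, cofactors and metal ions between cytosol and matrix. They are built from repeats of a common module, are made from nuclear genes and are imported without a cleaved presequence in most cases. In type 2 cells such carriers stand between the mitochondrial matrix and the cytosolic synthesis of surfactant lipid, for which exported citrate is a source of carbon. Several members form pairs that share a substrate but differ in the tissues that use them.

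Levels are FPKM, fragment counts scaled by transcript length and by the mapped fragments of the library, as deposited and summed over the transcripts of a gene. Read numbers are unknown, so no counting error can be given. Of the 40 members, 35 reached 1 FPKM in 3 or more of 6 libraries and were tested together with all other such genes, 12326 in all. The question put by the design is which genes of these preparations differ in level after repeated bleomycin. A change is a difference of mean log2(FPKM + 1), bleomycin minus PBS, given with its standard error (SE) from limma. A gene was called at an adjusted p under 0.05 by limma, with Benjamini-Hochberg adjustment over all 12326 genes.

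The family showed few calls. Of its 35 tested members 1 rose and 2 fell, which is 8.57%, while 22.5% of all tested genes were called (15.2% higher and 7.34% lower). Slc25a30, a relative of the uncoupling proteins first described in kidney, rose by 1.23 ± 0.15, with a mean 3.15 times that with PBS. Slc25a35, a carrier without a settled substrate, and Slc25a47, a carrier known mainly from liver, fell by 0.63 ± 0.16 and 0.72 ± 0.18. The other 32 did not pass, among them the most abundant carriers Slc25a3, Slc25a4 and Slc25a5. The median change of the 35 was -0.17, against 0.09 over all tested genes, with 22 values below 0 and 13 above. Changes of at least 1 in size on the log2 scale were found in 1 member (2.86%), against 19.1% of all tested genes. A p that misses the threshold does not show that levels were equal, and the median SE of the members, 0.25, was close to that of all genes, 0.23.

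The split of calls depended on how libraries were scaled. When each library was brought to the same median, 1 member rose and 5 fell (17.1%, against 23.4% of all genes). With quantile normalization 1 rose and 7 fell (22.9%, against 23.3% of all genes). These scalings moved the median change of all genes from 0.09 to -0.08 in both cases. The members' median then lay 0.26 below that of all genes with equal medians and 0.19 below it with quantile normalization, beside 0.26 without scaling.

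Levels of cell type markers differed between groups. The summed level of 8 AT2 markers was between 3519 and 10143 FPKM in the bleomycin libraries and between 17888 and 26053 FPKM in the PBS libraries, and 7 of the 8 fell. The sums of 4 markers each were 118 to 194 against 1.51 to 2.68 FPKM for T and NK cells, 371 to 543 against 8.06 to 29.4 FPKM for neutrophils, and 142 to 257 against 18.0 to 20.96 FPKM for endothelium, in bleomycin against PBS libraries. All 4 markers of each of these lists rose. The T and NK cell markers met the filter of 1 FPKM mainly through the bleomycin libraries. Of all tested genes 15.2% were called higher and 7.34% lower. For B and plasma cells 4 of 4 rose (379 to 786 against 9.04 to 16.7 FPKM) and for macrophages and monocytes 3 of 4 (82.0 to 256 against 9.86 to 14.8 FPKM). The 4 AT1 markers summed to 227 to 330 against 364 to 513 FPKM, with 1 lower, and the 4 ciliated cell markers to 187 to 333 against 103 to 255 FPKM, with 1 higher. The AT1 markers did not move together, as 3 changes were below 0 and 1 above, from -1.24 to 1.35. Of these AT1 markers 1 was higher and 2 were lower without overlap between groups, beside 27.2% and 16.4% of all tested genes. The 4 fibroblast markers summed to 342 to 856 FPKM with bleomycin and 1250 to 1877 FPKM with PBS, with 2 lower. None of the 44 markers was at 0 in any library. A fall in a cell type's share and a fall in RNA per cell cannot be told apart in such libraries, and the part of these markers in the changes of the carriers was not tested.

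**Figure D1:**
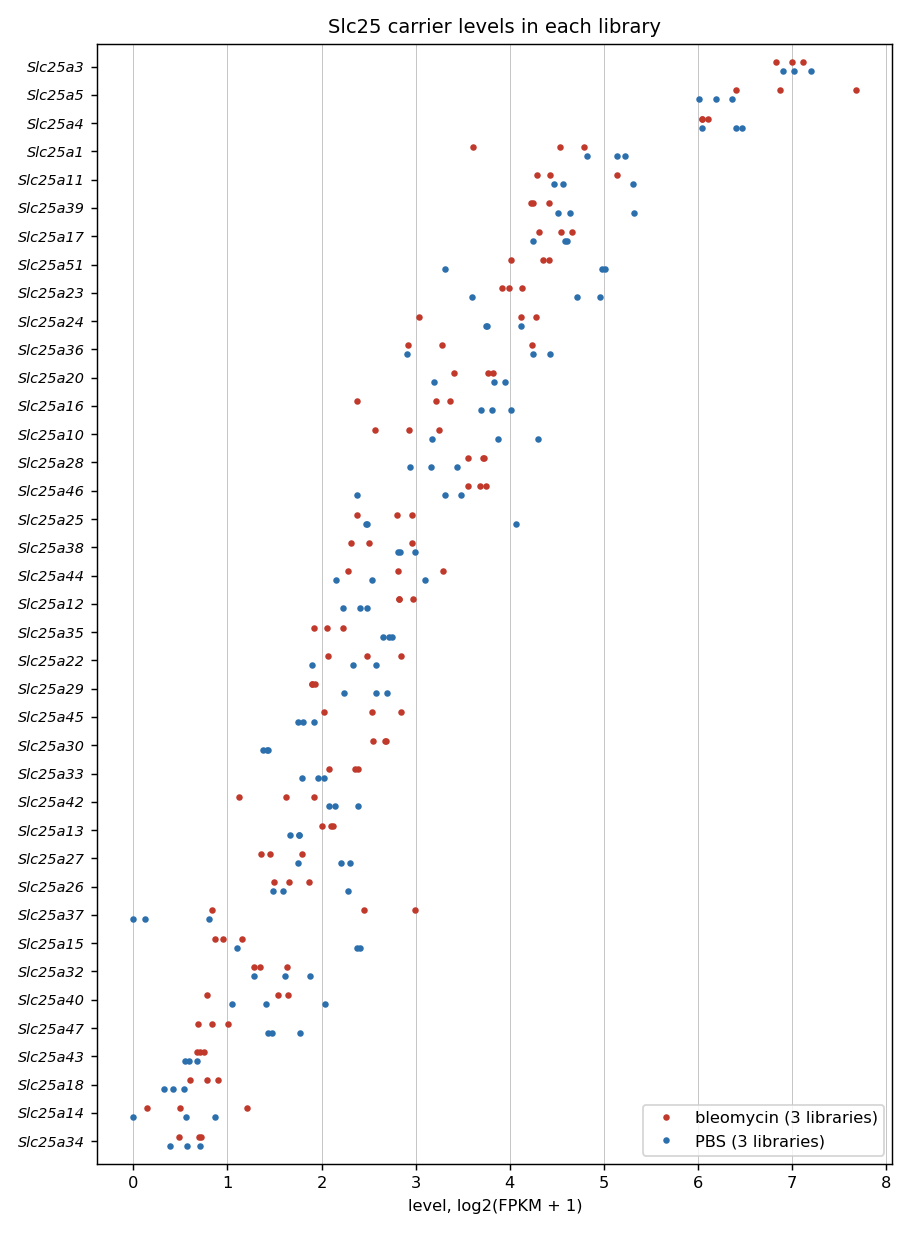
Level of 39 of the 40 Slc25 genes as log2(FPKM + 1), 1 point per library, with bleomycin libraries above PBS libraries in each row and genes ordered by their mean over the 6 libraries. Slc25a3, Slc25a5 and Slc25a4 stand above all other members, and the bleomycin points of Slc25a30 lie to the right of its PBS points without overlap.

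The promoters of Slc25a30 and Slc25a47 are shown because these genes were called in opposite directions and their RefSeq start sites fall on the first base of the listed transcripts. Each sequence runs 5′ to 3′ from 250 bases before to 50 bases after the start site, from RefSeq on GRCm38.p6 (the mm10 assembly). Capitals mark matches to the CCAAT box (CCAAT) and the GC box (GGGCGG) on either strand, and no 2 matches overlap. Slc25a30 lies at chr14:75786988-75787287 on the minus strand, and Slc25a47 at chr12:108850879-108851178 on the plus strand.
Slc25a30: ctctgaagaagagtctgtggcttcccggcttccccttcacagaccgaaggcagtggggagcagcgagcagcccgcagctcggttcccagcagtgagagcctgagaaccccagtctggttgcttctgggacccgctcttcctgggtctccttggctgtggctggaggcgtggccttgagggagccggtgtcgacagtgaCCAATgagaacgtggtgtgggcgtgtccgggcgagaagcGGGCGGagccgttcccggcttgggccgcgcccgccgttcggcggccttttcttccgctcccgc
Slc25a47: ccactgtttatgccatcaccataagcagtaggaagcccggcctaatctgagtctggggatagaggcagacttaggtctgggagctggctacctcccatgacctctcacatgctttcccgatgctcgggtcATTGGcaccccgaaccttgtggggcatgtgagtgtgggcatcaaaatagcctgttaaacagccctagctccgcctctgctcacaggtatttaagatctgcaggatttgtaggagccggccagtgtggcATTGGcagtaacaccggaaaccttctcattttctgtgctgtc

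The windows differ in composition. That of Slc25a30 holds 25 CpG and 66.7% G and C, with a CCAAT box that begins at -52 and a GC box that begins at -13. That of Slc25a47 holds 7 CpG and 53.3% G and C, with CCAAT boxes on the reverse strand at -120 and 9 and no GC box. The median over all 32851 promoter windows is 7 CpG, and over the 39 windows of Slc25 genes it is 15. Of the 31 members with a window 27 hold a GC box (87.1%), against 66.1% of the 10597 listed genes with a window and 38.2% of all 27025 symbols. A CCAAT box is in 17 (54.8%, against 42.0% of listed genes). The ETS motif CCGGAAG of GABP, a regulator of respiratory chain genes, and the E-box CACGTG are in 6 each (19.4%, against 18.4% and 11.1% of listed genes). The cyclic AMP response element TGACGTCA is in 2 (6.45%, against 3.34%). No member's window holds the palindromic NRF1 motif or the ERR motif TCAAGGTCA, which 2.13% and 0.359% of listed genes hold. All motifs were searched on both strands, and a match is a description of these letters and not of binding.

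As a whole the family took a similar part of the listed transcripts in both groups. Its FPKM summed to 608, 661 and 512 in bleomycin replicates 1, 2 and 3, against 670, 539 and 570 in PBS replicates 1, 2 and 3. This is 0.224 ± 0.027% of the listed FPKM with bleomycin and 0.218 ± 0.01% with PBS (mean ± SD, n = 3 each), and the groups overlap. Slc25a3, Slc25a4 and Slc25a5 together made up 51.0% to 60.4% of that sum with bleomycin and 45.6% to 50.9% with PBS. Without them the sum was 251 to 289 FPKM with bleomycin and 265 to 365 FPKM with PBS. The other carriers averaged between 0.516 FPKM (Slc25a34) and 26.3 FPKM (Slc25a1) over the 6 libraries.

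Among carriers of adenine nucleotides and phosphate, none of 9 tested members passed, beside 22.5% of all tested genes. Slc25a3, the phosphate carrier that supplies ATP synthase, was the most abundant member. It was at 138, 127 and 112 FPKM in bleomycin replicates 1, 2 and 3, against 146, 129 and 118 FPKM in PBS replicates 1, 2 and 3. The groups overlap, and the change of -0.06 ± 0.16 has a 95% interval of -0.45 to 0.34 (limma adjusted p = 0.834). Its sign turned to 0.02 with quantile normalization or without PBS replicate 1 or bleomycin replicate 3.

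Slc25a3 has 3 listed transcripts, and they did not keep the same proportions. Slc25a3-001 carried 78.6 ± 2.28% of the gene's FPKM with bleomycin and 81.2 ± 3.14% with PBS. The minor form Slc25a3-004 was at 10.0, 12.5 and 8.74 FPKM in bleomycin replicates 1, 2 and 3, against 3.29, 5.43 and 1.88 FPKM in PBS replicates 1, 2 and 3. All 3 bleomycin values of this form lie above the PBS values. It made up 8.29 ± 1.37% of the gene with bleomycin and 2.69 ± 1.37% with PBS (SD, n = 3 each), a difference noticed in the values and not tested.

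The ADP/ATP carriers exchange cytosolic ADP for ATP made in the matrix, and the mouse uses Slc25a4 mainly in heart and muscle and Slc25a5 in dividing and many other cells. Slc25a5 was at 116, 204 and 83.5 FPKM in bleomycin replicates 1, 2 and 3, against 71.9, 81.1 and 63.7 FPKM in PBS replicates 1, 2 and 3. All bleomycin values are higher, by a wide margin only in replicate 2, and the change of 0.80 ± 0.33 did not pass (limma adjusted p = 0.131). The change was 0.45 without bleomycin replicate 2 (limma adjusted p = 0.248) and 1.09 without bleomycin replicate 3 (0.0465). Slc25a4 was at 65.0, 68.1 and 65.0 FPKM in bleomycin replicates 1, 2 and 3, against 87.3, 64.8 and 83.9 FPKM in PBS replicates 1, 2 and 3. Its groups overlap through PBS replicate 2, with a change of -0.24 ± 0.17 (limma adjusted p = 0.346).

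Slc25a4 made up 34.9 ± 9.42% of the pair's summed FPKM with bleomycin and 52.0 ± 6.68% with PBS (SD, n = 3 each). The highest bleomycin share, 43.8%, lies just below the lowest PBS share, 44.4%. The exact permutation test, two-sided, gave p = 0.1, the smallest that 3 against 3 libraries allow, and 0.4 after adjustment over 8 pairs. GENCODE names 1 processed copy of Slc25a5 by its symbol, and copies under other symbols were not searched for. Reads of near-identical copies could be shared, so the level of Slc25a5 is uncertain to an extent that is not known.

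The calcium-regulated ATP-Mg/phosphate carriers move adenine nucleotides in and out of the matrix. Slc25a24 averaged 14.0 ± 5.97 FPKM with bleomycin and 13.8 ± 2.27 FPKM with PBS, and Slc25a23 15.2 ± 1.25 and 22.1 ± 9.83 FPKM (SD, n = 3 each). Slc25a23 was lowest in PBS replicate 2 (11.1 FPKM, against 30.0 and 25.2 FPKM in PBS replicates 1 and 3), and its change of -0.41 (limma adjusted p = 0.449) was -0.82 without that library (0.0356), -0.14 without PBS replicate 1 (0.811) and -0.26 without PBS replicate 3 (0.694). Slc25a25 was at 15.7 FPKM in PBS replicate 2 and between 4.204 and 6.78 FPKM in the other libraries. Its change of -0.29 ± 0.46 turned to 0.23 without PBS replicate 2. The high value came from the form Slc25a25-003, at 14.1 FPKM there and between 1.73 and 3.98 FPKM elsewhere.

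Of the carriers linked to coenzyme A, Slc25a16 was at 4.18, 9.29 and 8.28 FPKM in bleomycin replicates 1, 2 and 3, against 12.0, 13.0 and 15.1 FPKM in PBS replicates 1, 2 and 3. All bleomycin values are lower, but the change of -0.86 ± 0.28 did not pass (limma adjusted p = 0.0761), except with equal medians (0.0421) or quantile normalization (0.0467), and was -0.55 without bleomycin replicate 1 (0.112). Slc25a42, which brings coenzyme A into the matrix, averaged 2.02 ± 0.809 FPKM with bleomycin and 3.63 ± 0.546 FPKM with PBS (change -0.65 ± 0.25, limma adjusted p = 0.107). It passed with equal medians (0.0481) and quantile normalization (0.037), and its sign turned with the most abundant transcript (0.10, limma adjusted p = 0.896). The form Slc25a42-001 averaged 2.02 FPKM with bleomycin and 1.97 FPKM with PBS, while Slc25a42-201 was listed at 0 in all bleomycin libraries and at 2.43, 2.55 and 0 FPKM in PBS replicates 1, 2 and 3. Slc25a17, a carrier of the peroxisomal membrane, averaged 21.9 ± 2.78 and 21.5 ± 3.03 FPKM, with a change of 0.03 ± 0.18 whose sign turned under both scalings (-0.14 and -0.05) and without PBS replicate 2 or bleomycin replicate 1.

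Among the carboxylate and uncoupling-like carriers, 1 of 6 tested members rose and 1 fell (33.3%, beside 22.5% of all tested genes). Slc25a30 (mm10 chromosome 14, 75761999 to 75787037, minus strand) was at 4.85, 5.41 and 5.41 FPKM in bleomycin replicates 1, 2 and 3, against 1.59, 1.69 and 1.69 FPKM in PBS replicates 1, 2 and 3. The libraries of each group lie close together and the groups are far apart, with a change of 1.23 ± 0.15 (95% interval 0.86 to 1.59, limma adjusted p = 0.00227). The call held without any 1 library (adjusted p 0.00862 to 0.0124), with the replicate number as a block (0.0189) and in every other setting that tested the gene. It was below a filter of 5 FPKM and not tested there. The leukocyte and endothelial marker sums given above were higher in the same 3 libraries, and their part in this rise was not tested.

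Slc25a35 (mm10 chromosome 11, 68968131 to 68972516) was at 3.18, 2.77 and 3.70 FPKM in bleomycin replicates 1, 2 and 3, against 5.57, 5.29 and 5.71 FPKM in PBS replicates 1, 2 and 3. The groups do not overlap, with a change of -0.63 ± 0.16 (95% interval -1.03 to -0.24, limma adjusted p = 0.0366). Leaving out any of the PBS libraries, or bleomycin replicate 1 or 2, ended the call (adjusted p 0.0789 to 0.119), as did the fits with the replicate block (0.0851) and with the most abundant transcript of each gene in place of the sum (0.0508). The fits without 1 of those libraries called 14.5% to 15.5% of all tested genes, against 22.5% with all libraries. In them the change of Slc25a35 lay between -0.66 and -0.56. Its exons share 545 bases with Rangrf on the opposite strand, and no source used here states whether the quantification used strand. Rangrf itself averaged 3.21 ± 0.794 FPKM with bleomycin and 3.598 ± 0.251 FPKM with PBS (limma adjusted p = 0.639). In GENCODE the exons of 11 of the 40 members overlap a gene of the opposite strand, and their levels are uncertain to the extent that such reads were shared.

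The carriers of citrate and dicarboxylates did not pass. Slc25a1, which exports citrate for cytosolic acetyl-CoA and lipid synthesis, was at 22.2, 26.7 and 11.2 FPKM in bleomycin replicates 1, 2 and 3, against 36.3, 27.2 and 34.2 FPKM in PBS replicates 1, 2 and 3. The groups just fail to overlap, with bleomycin replicate 2 close to PBS replicate 2, and the change was -0.74 ± 0.32 (95% interval -1.51 to 0.02, limma adjusted p = 0.146), or -0.39 without bleomycin replicate 3 (0.213). Slc25a10, the carrier of malate and succinate in exchange for phosphate, was at 6.60, 8.49 and 4.95 FPKM in bleomycin replicates 1, 2 and 3, against 13.7, 18.7 and 7.99 FPKM in PBS replicates 1, 2 and 3. Its groups overlap, and the change of -0.87 ± 0.33 did not pass (limma adjusted p = 0.107). It passed without PBS replicate 3 (-1.17, 0.0457) and with the replicate block (0.048).

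Slc25a11, the oxoglutarate carrier of the malate-aspartate shuttle, was at 34.3, 18.6 and 20.4 FPKM in bleomycin replicates 1, 2 and 3, against 38.8, 22.7 and 21.2 FPKM in PBS replicates 1, 2 and 3. Replicate 1 was the highest in both groups, and the change was -0.17 ± 0.32 (limma adjusted p = 0.743), or 0.10 without PBS replicate 1. Slc25a27, an uncoupling-like carrier of brain, averaged 1.92 ± 0.476 FPKM with bleomycin and 3.30 ± 0.833 FPKM with PBS (limma adjusted p = 0.127, or 0.0311 with quantile normalization). Slc25a14, its relative, and Slc25a34 were below the filter, at 0.108 to 1.32 and 0.402 to 0.647 FPKM with bleomycin and 0 to 0.825 and 0.311 to 0.629 FPKM with PBS.

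**Figure D2:**
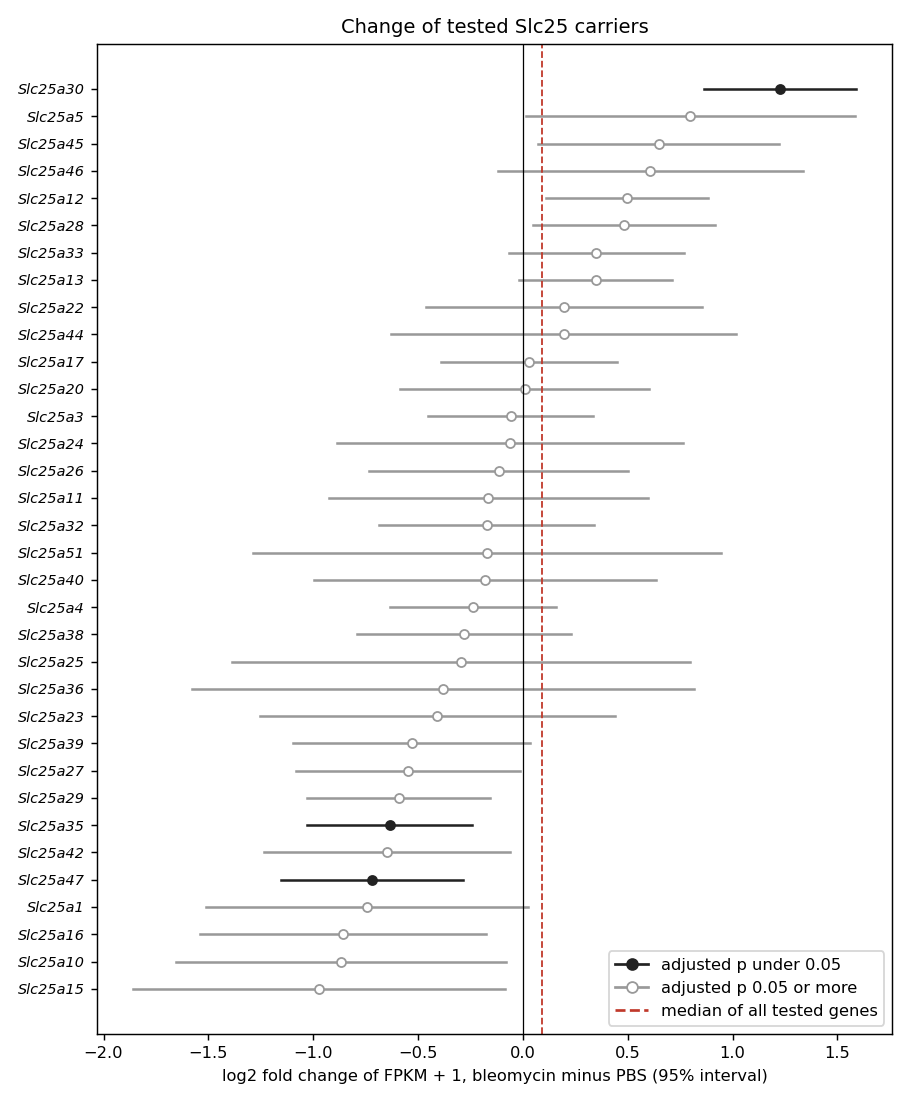
Change of 34 of the 35 tested Slc25 genes on the log2(FPKM + 1) scale, bleomycin minus PBS, with the 95% interval from limma. Filled points are Slc25a30, Slc25a35 and Slc25a47, the members called, and the dashed line is the median of all tested genes at 0.09.

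Among carriers of amino acids, carnitine and glutathione, with their nearest relatives, 1 of 12 tested members fell and none rose (8.33%, beside 22.5% of all tested genes). Of the 12, 5 had an unadjusted limma p under 0.05, beside 36.8% of all tested genes. Slc25a47 (mm10 chromosome 12, 108851129 to 108856814) was at 0.606, 0.784 and 1.01 FPKM in bleomycin replicates 1, 2 and 3, against 2.43, 1.70 and 1.78 FPKM in PBS replicates 1, 2 and 3. These are low levels without overlap, with a change of -0.72 ± 0.18 (95% interval -1.15 to -0.28, limma adjusted p = 0.0341). The filter of 1 FPKM was met through the PBS libraries, since bleomycin replicates 1 and 2 lay below it. The call held in the fit without a filter (limma adjusted p = 0.03515). This call too ended when any of the PBS libraries, or bleomycin replicate 1 or 2, was left out (adjusted p 0.0649 to 0.0959), and with the replicate block (0.0944). The change was -0.26 with a pseudocount of 5 FPKM and -1.21 with one of 0.1 FPKM, both past the threshold.

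The aspartate/glutamate carriers, which drive the malate-aspartate shuttle, were both higher in every bleomycin library, without passing. Slc25a12 was at 6.83, 6.07 and 6.06 FPKM in bleomycin replicates 1, 2 and 3, against 4.32, 3.69 and 4.57 FPKM in PBS replicates 1, 2 and 3 (change 0.50 ± 0.16, limma adjusted p = 0.0704). Slc25a13 was at 3.35, 3.00 and 3.29 FPKM in bleomycin replicates 1, 2 and 3, against 2.39, 2.16 and 2.38 FPKM in PBS replicates 1, 2 and 3 (0.35 ± 0.15, limma adjusted p = 0.152). Both changes were smaller with equal medians (0.33 and 0.18) and quantile normalization (0.30 and 0.09). Slc25a12 made up 66.3 ± 1.25% of the pair's summed FPKM with bleomycin and 64.4 ± 1.35% with PBS, the narrowest spread of the 8 pairs (SD, n = 3 each, exact permutation p = 0.2, adjusted 0.4). The 2 listed transcripts of Slc25a13 share nearly the same span, and Slc25a13-001 carried 100%, 49.9% and 0% of the gene in bleomycin replicates 1, 2 and 3, against 50.4%, 100% and 50.4% in PBS replicates 1, 2 and 3.

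Slc25a15, the ornithine carrier of the urea cycle, was at 1.22, 0.932 and 0.832 FPKM in bleomycin replicates 1, 2 and 3, against 4.29, 4.21 and 1.15 FPKM in PBS replicates 1, 2 and 3. PBS replicate 3 lies within the bleomycin range, and the change of -0.97 ± 0.37 did not pass (limma adjusted p = 0.108). It passed without that library (-1.40, 0.0102) and with quantile normalization (-1.39, 0.0405). Slc25a29, a carrier of basic amino acids, averaged 2.76 ± 0.0579 FPKM with bleomycin and 4.71 ± 0.907 FPKM with PBS without overlap (change -0.59 ± 0.18, limma adjusted p = 0.0619), and it passed with equal medians (0.0275) and quantile normalization (0.0216).

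Slc25a20, which brings acylcarnitines into the matrix for fatty acid oxidation, was at 13.2, 12.7 and 9.58 FPKM in bleomycin replicates 1, 2 and 3, against 14.5, 8.16 and 13.2 FPKM in PBS replicates 1, 2 and 3. The groups overlap fully, with a change of 0.01 ± 0.25 (95% interval -0.58 to 0.60, limma adjusted p = 0.984), which was -0.16 with equal medians and -0.14 with quantile normalization. Slc25a45, a relative of the carnitine carrier, was at 6.19, 4.81 and 3.08 FPKM in bleomycin replicates 1, 2 and 3, against 2.35, 2.49 and 2.80 FPKM in PBS replicates 1, 2 and 3. Bleomycin replicate 3 stands just above PBS replicate 3, and the change of 0.65 ± 0.24 (limma adjusted p = 0.102) passed without it (0.87, 0.0334) and was 0.41 with quantile normalization (0.292).

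Of the glycine and glutathione carriers, Slc25a38, which supplies glycine for haem synthesis, was at 6.82, 3.96 and 4.69 FPKM in bleomycin replicates 1, 2 and 3, against 6.96, 6.12 and 6.01 FPKM in PBS replicates 1, 2 and 3 (change -0.28 ± 0.21, limma adjusted p = 0.387). Slc25a39, needed for glutathione import, was at 17.7, 17.9 and 20.3 FPKM in bleomycin replicates 1, 2 and 3, against 38.9, 23.9 and 21.9 FPKM in PBS replicates 1, 2 and 3. Its groups do not overlap, though only PBS replicate 1 is far from the bleomycin values (change -0.53 ± 0.24, limma adjusted p = 0.158, or -0.28 and 0.259 without that library). Its relative Slc25a40 was less abundant, at 1.58 ± 0.757 FPKM with bleomycin and 1.95 ± 1.05 FPKM with PBS (SD, n = 3 each).

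The glutamate carrier Slc25a22 averaged 4.66 ± 1.47 FPKM with bleomycin and 3.92 ± 1.14 FPKM with PBS, and the branched-chain amino acid carrier Slc25a44 averaged 6.22 ± 2.47 and 5.29 ± 2.10 FPKM (SD, n = 3 each). Neither passed (limma adjusted p of 0.654 and 0.721), and with quantile normalization both changes were below 0, at -0.02 for Slc25a22 and -0.000325 for Slc25a44. Slc25a18, the other glutamate carrier, was below the filter at 0.518 to 0.866 FPKM with bleomycin and 0.249 to 0.453 FPKM with PBS.

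None of 6 tested carriers of nucleotides and cofactors passed, beside 22.5% of all tested genes. Slc25a33, a pyrimidine nucleotide carrier, averaged 3.86 ± 0.549 and 2.81 ± 0.312 FPKM with bleomycin and with PBS, without overlap (change 0.35 ± 0.17, limma adjusted p = 0.199, or 0.18 with equal medians and 0.11 with quantile normalization). Its partner Slc25a36 averaged 11.04 ± 6.00 and 15.0 ± 7.45 FPKM (limma adjusted p = 0.628). The folate carrier Slc25a32 averaged 1.69 ± 0.356 and 2.06 ± 0.618 FPKM and the S-adenosylmethionine carrier Slc25a26 2.20 ± 0.415 and 2.55 ± 1.13 FPKM, with bleomycin and with PBS (limma adjusted p of 0.606 and 0.782).

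Slc25a51, which brings NAD into the matrix, was at 15.1, 20.4 and 19.5 FPKM in bleomycin replicates 1, 2 and 3, against 30.7, 8.95 and 31.2 FPKM in PBS replicates 1, 2 and 3. PBS replicate 2 lay below all bleomycin libraries while the other PBS libraries lay above them (change -0.17 ± 0.47, limma adjusted p = 0.825). Its long forms Slc25a51-001 and Slc25a51-201 carried 28.2% and 26.6% of the gene in PBS replicate 2, against 44.5% to 48.9% each in the other 5 libraries. PBS replicate 2 held 322 FPKM of summed erythroid markers, against 15.6 and 14.4 FPKM in PBS replicates 1 and 3, and the part of this in the level of Slc25a51 was not tested.

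The iron carriers, the mitoferrins, deliver iron for haem and iron-sulfur clusters. Slc25a28, the form of most tissues, was at 12.1, 10.7 and 12.2 FPKM in bleomycin replicates 1, 2 and 3, against 9.86, 6.70 and 7.95 FPKM in PBS replicates 1, 2 and 3. All bleomycin values are higher, and the change of 0.48 ± 0.18 did not pass (limma adjusted p = 0.105), and was 0.31 with equal medians and 0.32 with quantile normalization. Slc25a37, the form of red cell precursors, was at 6.96, 0.789 and 4.48 FPKM in bleomycin replicates 1, 2 and 3, against 0, 0.741 and 0.0885 FPKM in PBS replicates 1, 2 and 3. The lowest bleomycin value is only just above the highest PBS value.

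Slc25a37 was below the filter, and in a fit without a filter it changed by 1.79 ± 0.56 with a limma adjusted p of 0.0683. A value of 0 may be an estimate that failed, so the 0 of PBS replicate 1 is given only as listed. The erythroid markers summed to 502, 996 and 700 FPKM in bleomycin replicates 1, 2 and 3, against 15.6, 322 and 14.4 FPKM in PBS replicates 1, 2 and 3, so the bleomycin library with the least Slc25a37 had the highest sum. The neutrophil markers summed to 530, 371 and 543 FPKM in bleomycin replicates 1, 2 and 3, where replicate 2 is the lowest. The part of either in the level of Slc25a37 was not tested.

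Of the remaining members, Slc25a46, an outer membrane protein that acts in mitochondrial fission, averaged 11.7 ± 0.841 FPKM with bleomycin and 7.75 ± 3.14 FPKM with PBS (SD, n = 3 each). Its groups do not overlap, with PBS replicate 3 the lowest at 4.19 FPKM, and it did not pass (change 0.61 ± 0.30, limma adjusted p = 0.199, or 0.27 and 0.353 without PBS replicate 3). Slc25a43 was below the filter, at 0.597 to 0.679 FPKM with bleomycin and 0.463 to 0.596 FPKM with PBS. In all, 16 of the 35 tested members had no overlap between groups, 9 with bleomycin higher and 7 lower, which is 45.7%, beside 43.6% of all tested genes. The share without overlap was near that of all genes, while the share called, 8.57% against 22.5%, was lower. At an unadjusted limma p under 0.05 were 14 of the 35 tested members, beside 4530 of all 12326 tested genes (36.8%). The lower share of the family was thus seen at the adjusted threshold only. There it depended on scaling, with 22.9% against 23.3% with quantile normalization and 17.1% against 23.4% with equal medians. The median size of the change was 0.41 in the members and 0.43 in all tested genes.

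**Figure D3:**
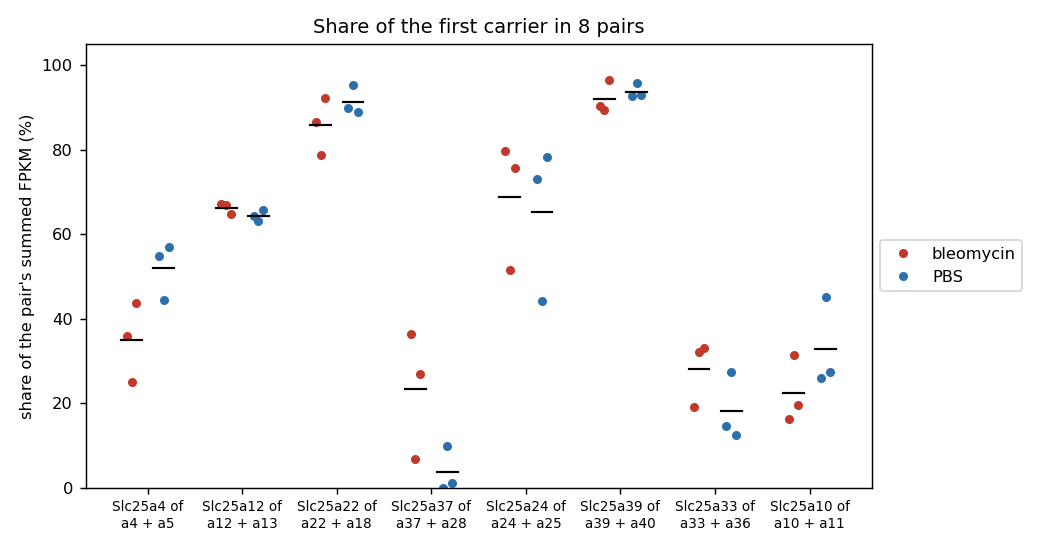
Share of the first-named carrier in the summed FPKM of each of 8 pairs with like substrates, in percent, with 1 point per library, bleomycin left of PBS, and black lines at the group means. Slc25a4 in the pair with Slc25a5 is the pair without overlap, with bleomycin shares of 25% to 43.8% and PBS shares of 44.4% to 56.9%.

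Shares within the other 7 pairs overlapped between groups. Slc25a37 made up 23.4 ± 15.1% of the mitoferrin pair with bleomycin and 3.69 ± 5.46% with PBS. Slc25a10 made up 22.3 ± 7.99% of its sum with Slc25a11 with bleomycin and 32.9 ± 10.7% with PBS. Slc25a33 made up 28.1 ± 7.70% and 18.2 ± 8.13% of its sum with Slc25a36, and Slc25a24 made up 68.9 ± 15.2% and 65.2 ± 18.2% of its sum with Slc25a25. Slc25a22 over Slc25a18 (85.8 ± 6.77% with bleomycin and 91.3 ± 3.44% with PBS) and Slc25a39 over Slc25a40 (92.1 ± 3.91% and 93.8 ± 1.71%) were the dominant forms in both groups (SD, n = 3 each). The exact permutation p of these 7 pairs lay between 0.2 and 0.6.

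Of 8 carriers of the same family looked up under other symbols, 3 were listed. These 3 were called, beside 22.5% of all tested genes, and so few genes do not describe the carriers with other symbols. Ucp2, an uncoupling protein found in many tissues and in leukocytes, rose, and Mtch1 and Mtch2, relatives in the outer membrane, fell. Ucp2 was at 103, 85.2 and 65.0 FPKM in bleomycin replicates 1, 2 and 3, against 39.7, 36.6 and 28.0 FPKM in PBS replicates 1, 2 and 3 (change 1.24 ± 0.23, limma adjusted p = 0.0105). Mtch2 was at 18.8, 16.1 and 14.9 FPKM in bleomycin replicates 1, 2 and 3, against 28.7, 29.7 and 31.6 FPKM in PBS replicates 1, 2 and 3 (-0.82 ± 0.15, limma adjusted p = 0.0105). Neither gene's groups overlap, beside 43.6% of all tested genes without overlap, and both calls held without any 1 library. Mtch1 changed by -0.87 ± 0.18 (limma adjusted p = 0.018), which missed the threshold when PBS replicate 3 (0.0512), bleomycin replicate 1 (0.0527) or bleomycin replicate 2 (0.0525) was left out and with the replicate block (0.0584).

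In the lists of the surrounding machinery 0% to 6.67% of tested genes were called, beside 22.5% of all tested genes. Of 17 ATP synthase subunits and 7 genes of the carnitine shuttle none was called by limma, with 0 and 1 at an unadjusted p under 0.05 (36.8% of all tested genes). Of 24 other transport proteins of the mitochondrial membranes 1 rose, the outer membrane channel Vdac2 (0.53 ± 0.13, limma adjusted p = 0.0324). Of 15 genes for the import of carrier precursors 1 rose, the receptor Tomm20 (0.53 ± 0.13, limma adjusted p = 0.0346). Both calls were lost without any 1 library (adjusted p 0.0556 to 0.0942 for Vdac2 and 0.0629 to 0.0959 for Tomm20), with equal medians (0.102 and 0.116) and with the replicate block (0.0773 and 0.0937), and that of Tomm20 also with quantile normalization (0.0637) and that of Vdac2 with the most abundant transcript (0.0514). Median changes of these 4 lists were 0.05, -0.39, -0.03 and 0.15.

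Among enzymes that use the carried substrates the share called was 25% around the malate-aspartate shuttle, 21.4% in proline, arginine and glutamate metabolism, 15.0% in haem and iron-sulfur cluster synthesis and 35.7% in folate, glycine and glutathione metabolism, beside 22.5% of all tested genes. Of 14 genes of folate, glycine and glutathione metabolism 4 rose and 1 fell. The mitochondrial folate enzyme Mthfd2 was at 7.37, 6.50 and 9.95 FPKM in bleomycin replicates 1, 2 and 3, against 1.13, 0.890 and 1.67 FPKM in PBS replicates 1, 2 and 3 (change 2.00 ± 0.23, limma adjusted p = 0.00152). Mthfd1l, of the same pathway, rose by 2.04 ± 0.19 (limma adjusted p = 0.000686) and Gsr, glutathione reductase, by 1.34 ± 0.21 (0.00616), and these 3 calls held without any 1 library. Mthfd1l was at 5.64, 4.62 and 4.85 FPKM in bleomycin replicates 1, 2 and 3, against 0.748, 0.422 and 0.266 FPKM in PBS replicates 1, 2 and 3. It met the filter of 1 FPKM only through its bleomycin libraries. Its change was 3.23 with a pseudocount of 0.1 FPKM and 0.87 with one of 5 FPKM. Shmt2 (0.67, limma adjusted p = 0.0434) and Amt (-0.68, 0.0398), enzymes of serine and glycine metabolism named after their values were seen, missed the threshold in 5 and 6 of the 6 fits that left out 1 library and with the replicate block (0.0791 and 0.0928). In the same libraries the folate carrier Slc25a32 changed by -0.17 ± 0.21 and did not pass.

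Of 12 genes around the malate-aspartate shuttle and citrate export 2 rose and 1 fell. Got1, the cytosolic aspartate aminotransferase of the shuttle, was at 11.6, 12.0 and 13.5 FPKM in bleomycin replicates 1, 2 and 3, against 4.95, 4.79 and 4.82 FPKM in PBS replicates 1, 2 and 3 (1.19 ± 0.15, limma adjusted p = 0.00228). Me2, mitochondrial malic enzyme, rose by 1.74 ± 0.21 (limma adjusted p = 0.00208). Acly, which splits exported citrate in the cytosol, fell by 0.82 ± 0.17 (limma adjusted p = 0.0177), a call lost without PBS replicate 2 (0.0583) or 3 (0.0537), beside Slc25a1, which did not pass.

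Of 14 genes of proline, arginine and glutamate metabolism 2 rose and 1 fell. Ass1, argininosuccinate synthase, rose by 2.03 ± 0.27 (limma adjusted p = 0.00298), and Oat, which makes glutamate semialdehyde from ornithine in the matrix, fell by 1.10 ± 0.16 (0.00422), both also without any 1 library. Of 20 genes of haem and iron-sulfur cluster synthesis 1 rose and 2 fell. Alad, of haem synthesis, fell by 1.06 ± 0.23 (limma adjusted p = 0.0217), which missed the threshold when PBS replicate 2 (0.0599), bleomycin replicate 1 (0.0685) or bleomycin replicate 3 (0.056) was left out. Fdx1, a ferredoxin, fell by 0.81 (limma adjusted p = 0.0373), which missed the threshold without any 1 library (0.0583 to 0.0989). Hscb, a cochaperone of iron-sulfur cluster assembly, rose by 0.69 (limma adjusted p = 0.0396), which passed only without bleomycin replicate 2 among those fits (0.0381, otherwise 0.0881 to 0.115) and was lost with the replicate block (0.0884), equal medians (0.1), quantile normalization (0.0975) and the most abundant transcript (0.0526). None of the 3 passed without PBS replicate 2. Over these 8 lists 16 of 123 tested genes were called (13.0%, 11 higher and 5 lower), with a median change of 0.01, in libraries whose AT2, leukocyte and endothelial markers differed as given above.

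**Figure D4:**
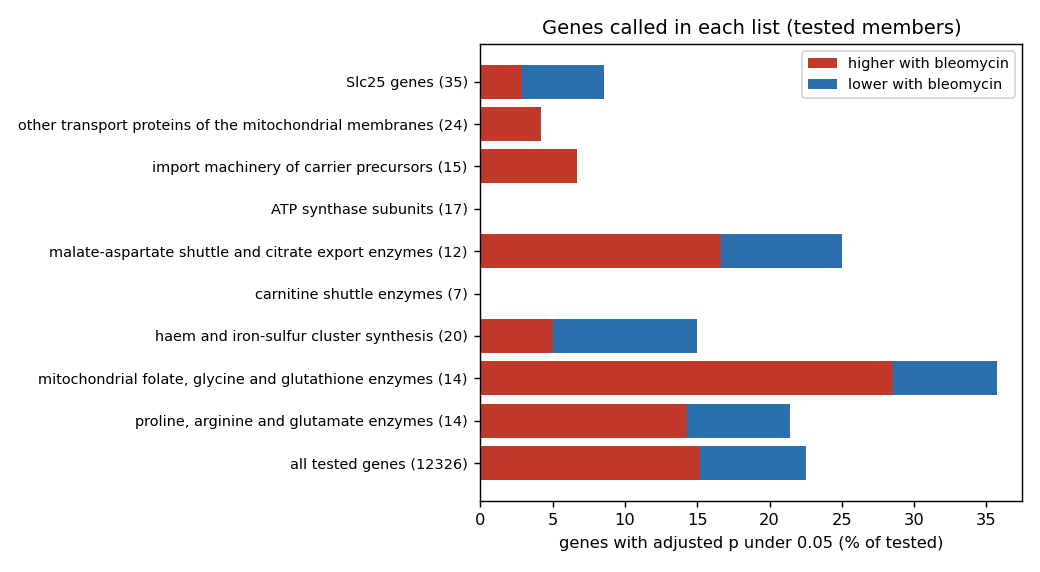
Percent of tested genes with an adjusted p under 0.05 in the Slc25 family, in 8 lists of related mitochondrial genes and in all tested genes, split by direction, with the number tested in brackets. Without scaling of the libraries, the family stands at 8.57% and all tested genes at 22.5%.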

How the data were processed

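RNA was sequenced from 3 bleomycin and 3 PBS preparations, grouped by sample title. Total RNA was extracted with TRIzol and made into stranded libraries with a KAPA kit, per the labels' protocols. HISAT2, StringTie, FastQC 0.10.1 and the build mm10 are named per the submitters' processing notes; settings and annotation release were not stated in the sources. The authors deposited FPKM per protein-coding transcript, per the file headers, summing to 253146 to 300697 per library.

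FPKM were summed by gene ID. Genes with 1 FPKM or more in 3 of 6 libraries were fitted on log2(FPKM + 1) with limma 3.58.1 in R 4.3.3 (eBayes with a mean-variance trend and no covariate), which was tested on simulated data. Pair shares were compared by an exact permutation test in scipy 1.17.1. Because values are not counts, no count model was used. The limma p-values rest on the spread between libraries of 1 mouse each, drawn toward a trend over all tested genes. Deviations from group means correlated at -0.00431 to 0.0391 for equal replicate numbers and -0.0354 to 0.0209 for unequal numbers. No pairing was seen, though 3 libraries per group cannot show that there was none. Members, lists, pairs and alternatives were chosen with earlier results of these data known. Members with an adjusted p under 0.05 and 13 others taken in any case are given per library, as are some of the rest. From the lists of related mitochondrial genes up to 3 with the smallest adjusted p are named, and also Shmt2 and Amt. Of 6 genes outside the family chosen in any case, Ucp2 and Mtch2 are named here. Cell type markers are given as sums and counts. Promoters come from RefSeq (GRCm38.p6). Exon overlaps come from GENCODE release M21, which holds 59 of the 66 transcript IDs with the same version. Some genes are counted but not reported here.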

Additional observations from a re-analysis of the deposited data

How the results depend on the processing

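Slc25a30 kept its direction and its call under all alternatives that tested it. The number of members called higher, 1 with all libraries, was 0 with a filter of 5 FPKM, which removed Slc25a30, and 1 to 3 without single libraries, with 3 only without bleomycin replicate 3. The number called lower, 2, was 1 with a filter of 5 FPKM, 1 with the most abundant transcript of each gene, 5 with equal medians, 7 with quantile normalization and 0 to 2 without single libraries. It was 0 in the 3 fits that left out PBS replicate 1 or bleomycin replicate 1 or 2, and 1 without PBS replicate 2. With the replicate number as a block it was 1, Slc25a10 in place of Slc25a35 and Slc25a47. The block changed the count of all called genes to 1359 higher and 563 lower, against 1871 and 905 without it. Correlations of equal numbers (-0.00431 to 0.0391) lay near those of unequal numbers (-0.0354 to 0.0209). Fits that left out 1 library also called fewer of all tested genes, 21.3% without bleomycin replicate 3 and 14.5% to 15.5% in the others, against 22.5% with all libraries.

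Signs turned only for members that were not called. With quantile normalization these were Slc25a3 (0.0203), Slc25a17 (-0.051), Slc25a20 (-0.136), Slc25a22 (-0.0174) and Slc25a44 (-0.000325), and with equal medians Slc25a17 (-0.141) and Slc25a20 (-0.161). With the most abundant transcript they were Slc25a13 (-0.166), Slc25a42 (0.0962), Slc25a44 (-0.209) and Slc25a51 (0.00186). The forms of Slc25a13, Slc25a42 and Slc25a44 trade places between libraries. For Slc25a51 the leading form changed only in PBS replicate 2, with Slc25a51-005 at 2.91 FPKM and Slc25a51-001 at 2.53 FPKM. With the most abundant transcript the share of Slc25a12 in its pair differed by 8.95 percentage points in place of 1.88. Without single libraries, changes ranged from -0.129 to 0.0238 for Slc25a3, -0.427 to 0.0985 for Slc25a11, -0.0878 to 0.128 for Slc25a17, -0.222 to 0.156 for Slc25a20, -0.296 to 0.326 for Slc25a24, -0.559 to 0.234 for Slc25a25, -0.268 to 0.131 for Slc25a26, -0.405 to 0.0901 for Slc25a40, -0.0546 to 0.449 for Slc25a44 and -0.733 to 0.114 for Slc25a51. Causes of these shifts were not tested beyond the construction named. With FPKM only, the depth behind each value is unknown.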
